A study of Mus musculus with 2 samples.

Results

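Cancer-testis genes are silent in most adult tissues, active in the male germline and often active again in tumours. The genes described here are 9 X-linked mouse genes placed under that heading, and their activity in other tissues was not measured. They include Magea2 and Magea5 of the Mage family, Xlr4a and Xlr4c of the Xlr superfamily and Ssxb8 of the Ssx family. The others are the ferritin-like gene Fthl17f, the transcription factor relative Taf7l, the meiosis gene Tex11 and Fmr1nb. All 9 are among the 16593 named genes on the array and were followed through all 15 probes that the platform annotation assigns to them. They were selected on the same measured signals that are given below, higher in one cell line than in the other, so that difference is a description and is no test.

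Expression was measured on 1-colour Illumina bead arrays in mouse embryonic fibroblasts of C57BL genetic background, with 1 array for each genotype. The Dnmt1-/- (p53-/-) cells lacked both Dnmt1, the maintenance DNA methyltransferase, and p53, while the p53-/- cells lacked p53 alone, so the absence of p53 was common to both lines. Both were cultured cells grown in medium with serum. The sources used here say neither whether a line was a single clone nor which sex its embryo had. With 1 array per genotype no difference could be tested, and precision is limited by that number of arrays.

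Many genes of the germline carry methylated promoters in somatic cells, and Dnmt1 copies that methylation onto new DNA at each cell division. Human MAGE, SSX and related genes are known from tumours, in which loss of promoter methylation goes together with their expression. The series title speaks of promoter DNA methylation and the germline, and the comparison asks what the transcripts of such genes do in somatic cells without Dnmt1.

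Promoter windows from RefSeq (build GRCm38.p6), running from 250 bases before to 50 bases after the annotated start, were found for 8 of the 9 genes. The window of Tex11 was not used here. Those of both Mage genes, both Xlr4 genes and Fmr1nb are shown because the members of each family pair differ in their sequence or in their values. All 5 lie on the X chromosome and are written 5′ to 3′ on the gene's strand, with every CpG, the dinucleotide that Dnmt1 methylates, in capitals. Magea2 is at chrX:155033243-155033542, Magea5 at chrX:155061504-155061803, Xlr4a at chrX:73082458-73082757 and Xlr4c at chrX:73243081-73243380, all on the minus strand, and Fmr1nb is at chrX:68761589-68761888 on the plus strand.
Magea2: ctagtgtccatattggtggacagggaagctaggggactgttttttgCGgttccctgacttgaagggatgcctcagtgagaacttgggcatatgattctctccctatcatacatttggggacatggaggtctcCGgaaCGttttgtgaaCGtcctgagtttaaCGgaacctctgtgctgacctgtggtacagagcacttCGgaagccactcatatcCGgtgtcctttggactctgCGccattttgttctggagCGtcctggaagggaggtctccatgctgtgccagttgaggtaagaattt
Magea5: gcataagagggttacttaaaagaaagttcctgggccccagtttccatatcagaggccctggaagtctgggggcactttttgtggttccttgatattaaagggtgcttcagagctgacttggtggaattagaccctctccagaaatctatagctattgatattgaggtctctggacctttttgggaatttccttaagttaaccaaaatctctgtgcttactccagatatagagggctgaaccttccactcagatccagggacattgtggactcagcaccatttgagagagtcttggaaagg
Xlr4a: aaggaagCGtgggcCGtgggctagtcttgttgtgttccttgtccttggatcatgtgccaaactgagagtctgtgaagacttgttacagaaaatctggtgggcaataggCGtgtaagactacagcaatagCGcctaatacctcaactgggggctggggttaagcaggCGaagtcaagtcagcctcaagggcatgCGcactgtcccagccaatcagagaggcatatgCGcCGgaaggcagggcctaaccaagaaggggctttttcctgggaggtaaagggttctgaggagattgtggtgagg
Xlr4c: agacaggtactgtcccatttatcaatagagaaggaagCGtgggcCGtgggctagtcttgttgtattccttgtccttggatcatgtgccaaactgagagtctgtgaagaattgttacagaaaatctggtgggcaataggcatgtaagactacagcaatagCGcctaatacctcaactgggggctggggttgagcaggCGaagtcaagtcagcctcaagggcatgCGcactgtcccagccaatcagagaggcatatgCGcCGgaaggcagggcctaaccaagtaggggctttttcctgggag
Fmr1nb: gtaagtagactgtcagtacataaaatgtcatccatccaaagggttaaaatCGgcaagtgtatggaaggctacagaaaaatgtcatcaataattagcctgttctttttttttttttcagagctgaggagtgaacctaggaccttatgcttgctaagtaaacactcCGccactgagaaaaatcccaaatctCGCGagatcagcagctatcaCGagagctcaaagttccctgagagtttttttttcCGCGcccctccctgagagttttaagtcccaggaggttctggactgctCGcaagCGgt

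The promoter windows of the Mage pair held unequal numbers of CpGs, with 9 for Magea2 and 0 for Magea5. Those of the Xlr4 pair were nearly alike, with 8 CpGs for Xlr4a and 7 for Xlr4c. A global alignment of the 300-base windows held 265 identical bases (88.3% of 300) among 270 aligned bases. The other bases of each window fell in alignment gaps, which these percentages count as unlike. Magea2 and Magea5 shared 183 bases (61%), not far above the 48.3% to 55.3% found between windows of members of different families. Fmr1nb had 9 CpGs, Fthl17f 11, Taf7l 17 and Ssxb8 1. The median of the 8 windows was 8.5 CpGs, beside 7 over all 32841 mouse promoter windows and 7 over the 1222 on the X chromosome. The 8 windows thus had no CpG class in common, since Magea5 and Ssxb8 lay at the poor end of all promoters and Taf7l at percentile 69.4.

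**Figure D1:**
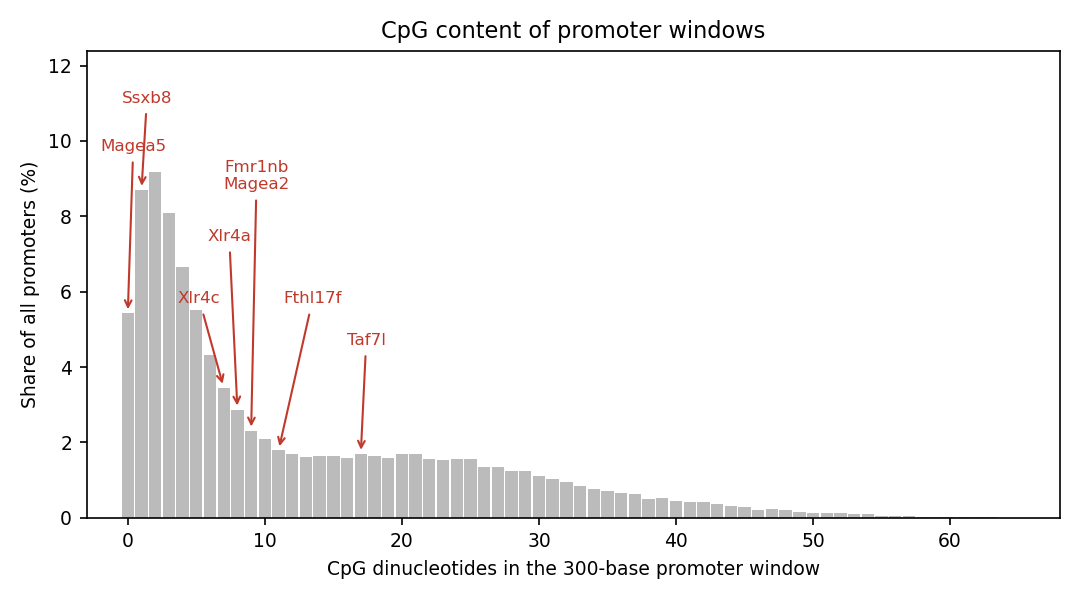
CpG dinucleotides per 300-base promoter window on the x axis against the share of all 32841 mouse promoter windows in percent (grey bars), with the bars that hold the 8 windows marked by gene name. The 8 windows spread between 0 CpGs (Magea5) and 17 CpGs (Taf7l).

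The letters CCGGAA, the core of an Ets factor site that contains a CpG and is known from the human MAGEA1 promoter, were searched on both strands. They occurred in 4 of the 8 windows, those of Magea2, Xlr4a, Xlr4c and Fthl17f, and in 14.9% of all windows. The Xlr4 matches fall in sequence common to both copies. The E-box letters CACGTG occurred in the window of Taf7l alone among the 8, and in 7.15% of all windows. The E2F-type letters TCCCGC occurred in that of Fthl17f alone among them, and in 20% of all windows. These matches describe letters only, and binding of any factor was not measured.

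The array checks came first. Dnmt1 itself had a signal of 439 units in Dnmt1-/- (p53-/-) cells and 1715 units in p53-/- cells, 4.54-fold lower after normalization, and whether its probe lies inside the deleted sequence was not examined. Trp53 had 0 probes under its name. The arrays detected 39.1% and 40.1% of 25697 probes in Dnmt1-/- (p53-/-) and p53-/- cells at a detection p-value under 0.01, which measures a probe against negative controls on its own array. The background differed, since probes without detection had a median of 117 units in Dnmt1-/- (p53-/-) cells and 138 units in p53-/- cells. Signals in units are as deposited, and log2 values are background-corrected and quantile-normalized. A probe not detected on 1 array has only a bound there, and its fold is then given as "at least", against the higher of its own level and the lowest level of any detected probe on that array. Such a bound holds for this normalization alone, and without background correction all 9 differences were smaller.

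All 9 genes were detected in Dnmt1-/- (p53-/-) cells and 1, Xlr4a, in p53-/- cells. Over all genes detected on at least 1 array, 4.75% were detected in Dnmt1-/- (p53-/-) cells alone and 6.6% in p53-/- cells alone. All 9 were higher by 2-fold or more in Dnmt1-/- (p53-/-) cells, the property they were selected on, and 0 were lower. Over all 7727 genes detected on at least 1 array, 5.55% were higher by that rule (429 genes), and 4.5% (348 genes) when undetected values were held at the detection limit, while 4.59% were lower. The median difference of the 9 genes was 3.98 log2, or 3.02 log2 with undetected values at that limit, 2.44 log2 with probes averaged per gene and 2.07 log2 without background correction. The median over all detected genes was -0.037 log2.

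**Figure D2:**
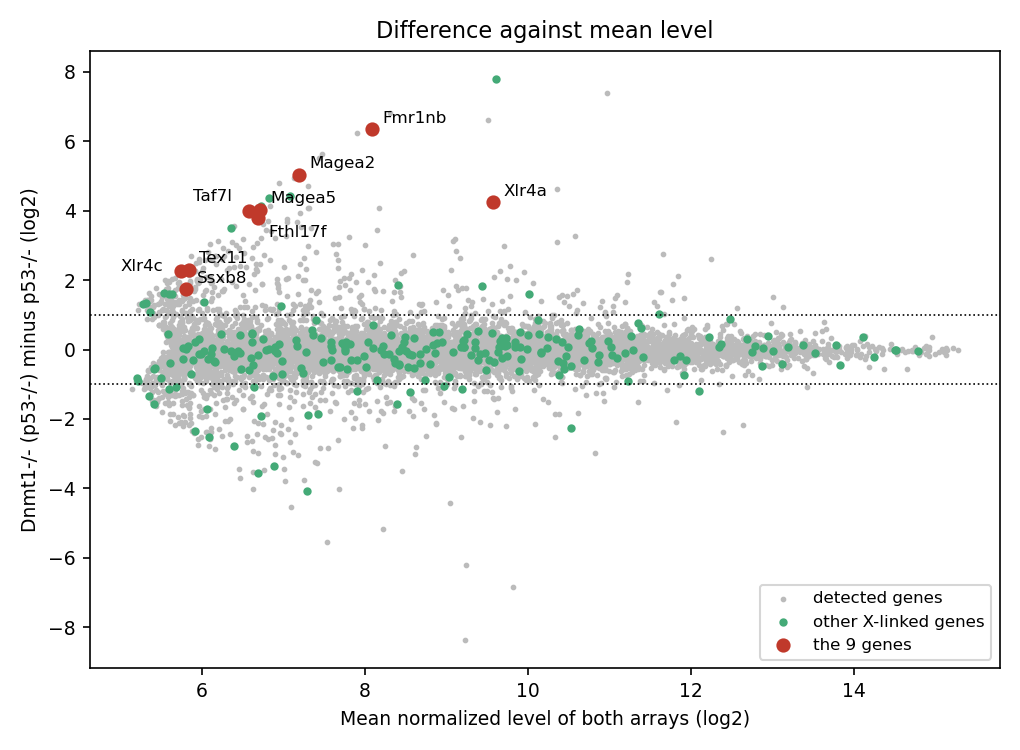
Mean normalized level of both arrays (log2) on the x axis against the difference, Dnmt1-/- (p53-/-) minus p53-/- (log2), for 7727 detected genes (grey), with the 9 genes in red, other X-linked genes in green and dotted lines at 2-fold. The 9 genes sit between 1.74 and 6.35 log2, while other X-linked genes lie on both sides of 0.

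The Mage genes encode proteins with a common homology domain that bind and steer RING-type ubiquitin ligases. The detected Magea2 probe read 919 units in Dnmt1-/- (p53-/-) cells and 133 units in p53-/- cells, at least 17.6-fold higher. A second Magea2 probe read 107 units in Dnmt1-/- (p53-/-) cells and 138 units in p53-/- cells and was detected in neither. The probes of this gene therefore disagreed, and 1 of 2 carries its value. The mean of both differed by 2.44 log2, and without background correction the detected probe differed by 2.96 log2.

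Magea5 gave the same picture. Its detected probe read 511 units in Dnmt1-/- (p53-/-) cells and 134 units in p53-/- cells, at least 8.94-fold higher. Its other 2 probes read 125 and 119 units in Dnmt1-/- (p53-/-) cells and 141 and 130 units in p53-/- cells, none of them detected. The mean over all 3 probes differed by 1.44 log2, and the detected probe by 2.11 log2 without background correction.

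The other germline-restricted Mage genes were mostly undetected on both arrays. That does not show them to be silent, since further probes of Magea2 and Magea5 were undetected as well. Of 10 such genes on the array, Magea2 and Magea5 included, 7 were not detected in either line, and these 7 include Magea1, Magea3 and Magea6, which lie in the same X-linked cluster. Magea3 and Magea6 read 133 and 134 units in Dnmt1-/- (p53-/-) cells and 149 and 136 units in p53-/- cells. The third detected member, Mageb4, read 183 units in Dnmt1-/- (p53-/-) cells and 140 units in p53-/- cells on 1 of 2 probes, a difference of 1.59 log2 but a bound of at least 1.78-fold, and it passed 2-fold under 5 of 10 alternative settings. Family members are similar in sequence, and the probe sequences were not used here, so a Mage probe may also report a paralog.

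Members of the Mage family that are active in many tissues did not share this pattern. Of 7 on the array 6 were detected. Of these 1 was higher, 2 were lower and 3 lay within 2-fold, and the median was -0.52 log2. Maged2 read 3045 units in Dnmt1-/- (p53-/-) cells and 6619 units in p53-/- cells, 2.28-fold lower. Tro, the trophinin gene, read 154 and 334 units in Dnmt1-/- (p53-/-) and p53-/- cells, 3.75-fold lower, and stayed under 2-fold without background correction. Ndn, an imprinted growth-restraining gene, was 2.02-fold higher and fell below 2-fold under 3 of 10 alternatives, without background correction, with normexp and an offset of 50, and under median scaling.

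**Figure D3:**
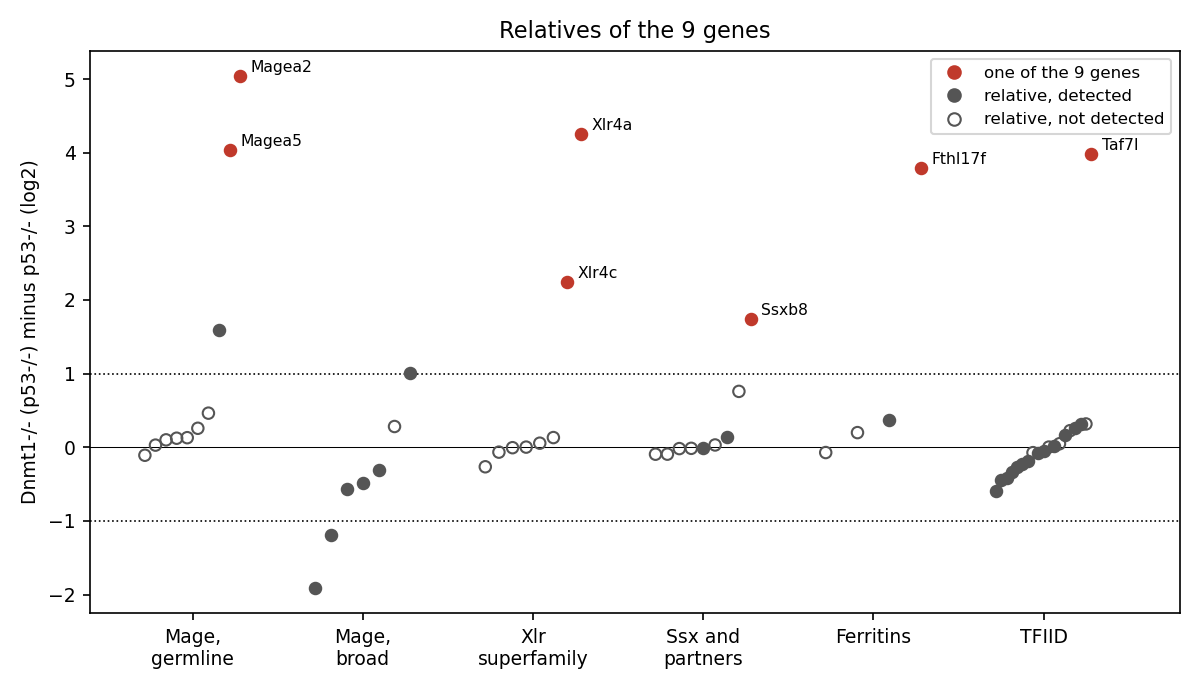
Difference in normalized level, Dnmt1-/- (p53-/-) minus p53-/- (log2), on the y axis for each gene of 6 gene lists along the x axis, filled where detected on at least 1 array and open where detected on neither, with dotted lines at 2-fold. Relatives of the 9 genes lie within 2-fold apart from Mageb4 (1.59 log2), Ndn (1.01 log2), Maged2 (-1.19 log2) and Tro (-1.91 log2). Open symbols rest on background-level readings on both arrays and do not show a lack of change. The 9 genes were selected as higher, so their contrast with relatives is a description.

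Xlr proteins are related to Sycp3, a component of the chromosome axis in meiosis, and several Xlr genes are imprinted in the mouse. Xlr4a was the 1 gene of the 9 measured on both arrays, so its fold is not a bound. Its single probe read 3458 units in Dnmt1-/- (p53-/-) cells and 303 units in p53-/- cells, 19-fold higher. Its difference was 4.25 log2.

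Xlr4c was measured by 3 probes that disagreed. Its detected probe read 215 units in Dnmt1-/- (p53-/-) cells and 130 units in p53-/- cells, at least 2.47-fold higher. The others read 127 and 107 units in Dnmt1-/- (p53-/-) cells and 132 and 126 units in p53-/- cells, without detection. The mean of all 3 probes differed by 0.87 log2, which is below 2-fold. The detected probe differed by 0.94 log2 without background correction, also below 2-fold.

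The rest of the Xlr superfamily was not detected. Of 8 members on the array 2 were detected, Xlr4a and Xlr4c, and 6 were not, among them Sycp3 and Xlr4b. The 5 X-linked relatives Xlr, Xlr3c, Xlr4b, Xlr5a and Xlr5c read 108 to 117 units in Dnmt1-/- (p53-/-) cells and 129 to 149 units in p53-/- cells. Xlr4b had 288 of 300 promoter bases in common with Xlr4a (96%), among 292 aligned bases. The 1 probe of Xlr4b read 116 units in Dnmt1-/- (p53-/-) cells and 129 units in p53-/- cells. The Xlr4 genes are close copies, and which of them a probe reports is uncertain.

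Ssx proteins are transcriptional repressors, and human SSX genes are known from their fusion to SS18 in synovial sarcoma. Ssxb8 read 201 units in Dnmt1-/- (p53-/-) cells, with a detection p-value of 3.13e-04, and 145 units in p53-/- cells, with a detection p-value of 0.182. It was at least 2.16-fold higher, the smallest of the 8 bounds. Without background correction Ssxb8 differed by 0.66 log2, below 2-fold. No other Ssxb gene on the array was detected, and the 8 probes of 6 such genes read 106 to 142 units in Dnmt1-/- (p53-/-) cells and 128 to 146 units in p53-/- cells. As probe sequences were not used here, the Ssxb8 probe may also report a paralog. Ss18 and Ssx2ip, partners of human SSX proteins, were detected on both arrays and differed by -0.0051 and 0.14 log2.

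Fthl17f belongs to an X-linked group of genes that resemble the ferritin heavy chain, the iron-storing subunit encoded by Fth1. Its probe read 472 units in Dnmt1-/- (p53-/-) cells and 140 units in p53-/- cells, at least 8.11-fold higher, and 1.94 log2 higher without background correction. Probe sequences were not used here, so this probe may also report another gene of that group. Fth1 itself was high on both arrays, at 36859 units in Dnmt1-/- (p53-/-) cells and 27328 units in p53-/- cells, a difference of 0.37 log2. Of 4 ferritin genes on the array 2 were detected, and Ftl1 and Ftmt were not. Ftl1 and Ftmt had 1 probe each, so this does not show them to be silent.

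Taf7l is the germ cell relative of Taf7, a subunit of the general transcription factor TFIID. Its probe read 468 units in Dnmt1-/- (p53-/-) cells and 128 units in p53-/- cells, at least 8.02-fold higher, and 2.07 log2 higher without background correction. Of 19 TFIID genes and relatives on the array 14 were detected, and the 13 besides Taf7l differed by -0.60 to 0.31 log2, all within 2-fold. Among them Taf10 read 1687 units in Dnmt1-/- (p53-/-) cells and 1554 units in p53-/- cells. The single probe of Taf7 was detected in neither line, which does not show Taf7 to be silent.

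Tex11 acts in the recombination of chromosomes in meiosis. Its probe read 224 units in Dnmt1-/- (p53-/-) cells and 134 units in p53-/- cells, at least 2.68-fold higher. Without background correction Tex11 differed by 0.95 log2, below 2-fold. A list of testis and reproductive genes had 37 members on the array, of which 33 are X-linked, Tex11 among them. Of the 33, 6 were detected, 4 of them higher, 1 lower and 1 in between. Besides Tex11, the reproductive homeobox gene Rhox5 was at least 222-fold higher, Tex13b at least 9.42-fold and Cldn34c1 2.36-fold. Cldn34c1 fell below 2-fold under 3 of 10 alternatives, without background correction (0.66 log2) and with either method at an offset of 50. Adgrg2, a receptor gene of the male reproductive ducts, was 3.68-fold lower, at 181 units in Dnmt1-/- (p53-/-) cells and 431 units in p53-/- cells. With the mean of its probes Adgrg2 differed by -0.92 log2, below 2-fold. The remaining 27 X-linked genes and the 4 on other chromosomes were detected in neither line.

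Fmr1nb is the neighbour of Fmr1, and its human counterpart is the cancer-testis antigen NY-SAR-35. It was the 1 gene of the 4 with several probes for which every probe was detected in Dnmt1-/- (p53-/-) cells. The probes read 2561 and 239 units in Dnmt1-/- (p53-/-) cells and 144 and 122 units in p53-/- cells. They gave bounds of at least 51.8-fold and at least 3.01-fold, so both were higher but by unlike amounts. Fmr1 and Aff2, the genes on either side of it, were detected in neither line, with Fmr1 at 112 units in Dnmt1-/- (p53-/-) cells and 125 units in p53-/- cells. Each was read by 1 probe, and a probe without detection does not show its gene to be silent. Of 7 genes in a list of the Fmr1nb neighbourhood 3 were detected, and 1, Fmr1nb, was higher.

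**Figure D4:**
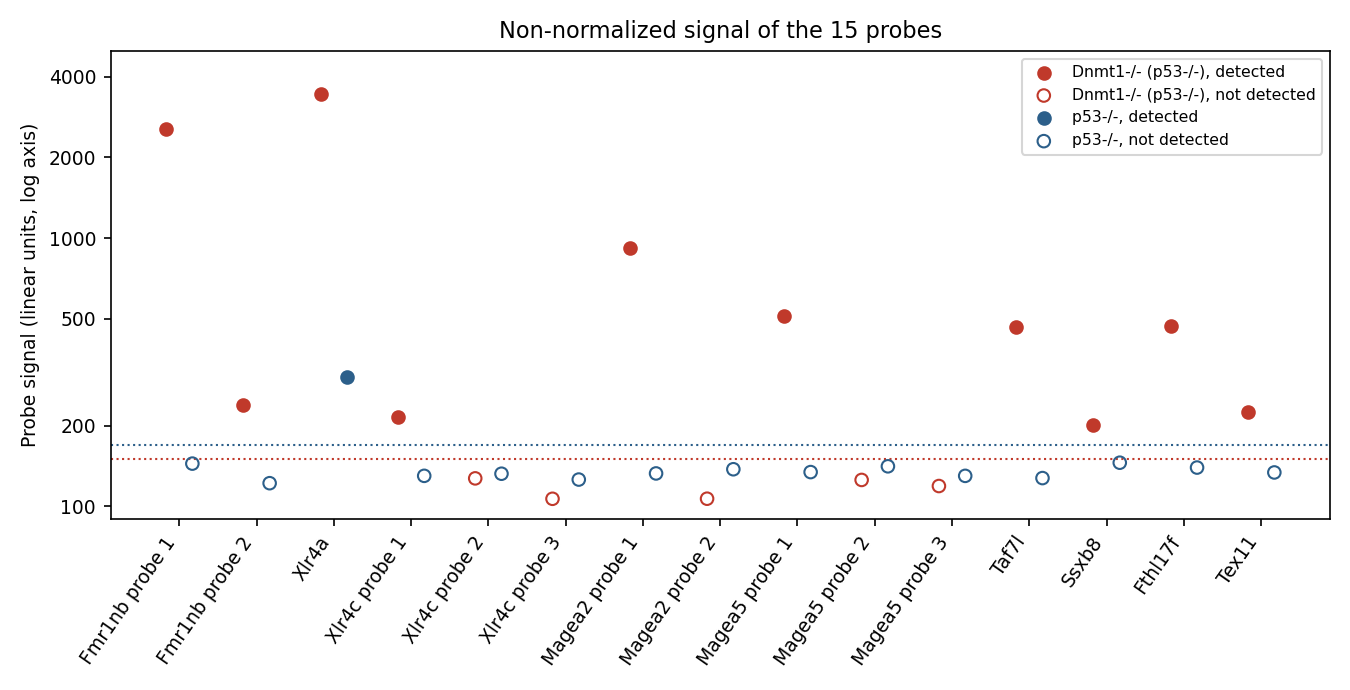
Non-normalized signal in linear units on a log axis for each of the 15 probes of the 9 genes along the x axis, in Dnmt1-/- (p53-/-) cells (red) and p53-/- cells (blue), filled where detected and open where not, with dotted lines at the lowest signal of a detected probe on each array. Of the 15 probes 10 were detected in Dnmt1-/- (p53-/-) cells and 1, that of Xlr4a, in p53-/- cells.

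Over the 15 probes, the groups were apart in 10 and not in 5. The 10 detected probes read 201 to 3458 units in Dnmt1-/- (p53-/-) cells and 122 to 303 units in p53-/- cells. The 5 others, all further probes of Xlr4c, Magea2 and Magea5, read 107 to 127 units in Dnmt1-/- (p53-/-) cells and 126 to 141 units in p53-/- cells and were lower in raw units in Dnmt1-/- (p53-/-) cells in each case, as the background of that array was. After normalization these 5 differed by -0.17 to 0.32 log2.

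Neighbouring genes on the X chromosome were mostly undetected or similar between lines. Taking the 3 nearest genes with a probe on each side of the 9, 44 neighbours were not among the 9. Of these 29 were not detected, 12 lay within 2-fold, 1 was higher (Xk, beside Fthl17f) and 2 were lower (Tmem35a beside Taf7l and Slc7a3 beside Tex11), all 3 named after their values were seen. As a bound Tmem35a was at least 1.28-fold lower. Of 10 alternatives, Xk and Slc7a3 passed 2-fold under 7 each and Tmem35a under 6. In a list of 16 genes around the Xlr cluster 7 were detected, and besides Xlr4a and Xlr4c the 5 others, among them Bgn and Bcap31, lay within 2-fold.

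Over the X chromosome, 255 of 609 genes on the array were detected, of which 26 (10.2%) passed 2-fold upward and 22 (8.63%) downward, with a median difference of -0.0083 log2. Without the 9 genes the share higher was 6.91%, beside 5.38% for genes of other chromosomes. Of the X-linked genes detected in Dnmt1-/- (p53-/-) cells alone and higher by 2-fold or more, 8 were among the 9 and 12 were not. As bounds, 6 of the 12 stayed under 2-fold, at least 1.27-fold to at least 1.84-fold, Xist and Mageb4 among them. The 5 of those 12 with the largest difference were Rhox5, 4930550L24Rik (at least 13.2-fold), Dcaf8l (at least 10.8-fold), Tex13b and Gm773 (at least 5.8-fold). The second probes of Tex13b and Gm773 were also detected in Dnmt1-/- (p53-/-) cells alone, with bounds of at least 1.81-fold and at least 3.91-fold. With 2 arrays this likeness rests on 1 difference per gene.

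Transcripts of the Y chromosome and Xist, looked at after these values were seen, also differed between the lines. Of 15 Y-linked genes on the array 0 were detected in Dnmt1-/- (p53-/-) cells and 3 in p53-/- cells, namely Eif2s3y, Kdm5d and Uty. Eif2s3y read 117 units in Dnmt1-/- (p53-/-) cells and 1395 units in p53-/- cells, and Kdm5d 115 units in Dnmt1-/- (p53-/-) cells and 279 units in p53-/- cells. The probes of Xist, the RNA of the inactive X chromosome, read 179 and 185 units in Dnmt1-/- (p53-/-) cells, both detected, and 138 and 141 units in p53-/- cells, both not detected. The Xist readings were low, since the lowest detected signal on the Dnmt1-/- (p53-/-) array was 150 units. Their bounds were at least 1.69-fold and at least 1.84-fold higher. As all 9 genes are X-linked, a difference in sex chromosomes between the lines and the loss of Dnmt1 cannot be told apart here.

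Markers of other cells were examined beside these results. Of 15 fibroblast markers on the array 12 were detected in both lines, among them Col1a1, Vim and Thy1, with S100a4 3.98-fold higher and Dcn 3.58-fold and Prrx1 2.26-fold lower. Prrx1 fell short of 2-fold without background correction and with the mean of its probes (-0.78 log2 at the least). Of 19 germ cell markers 1 was detected, Dazl, at 167 units in Dnmt1-/- (p53-/-) cells and 146 units in p53-/- cells, at least 1.42-fold higher. The summed signal of the 19 germ cell markers was 2288 units in Dnmt1-/- (p53-/-) cells and 2652 units in p53-/- cells. Ddx4, Stra8, Sycp1 and Prm1 were detected in neither line. Of 15 Sertoli and Leydig cell markers 1 was detected, Sox9 (1.51-fold lower), with summed signals of 1986 and 2417 units in Dnmt1-/- (p53-/-) and p53-/- cells. Of 8 lymphocyte markers 1 was detected, Cd3e (0.29 log2), with summed signals of 971 units in Dnmt1-/- (p53-/-) cells and 1129 units in p53-/- cells. The summed probes were mostly undetected and background was lower on the Dnmt1-/- (p53-/-) array, so these sums do not compare the lines.

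**Figure D5:**
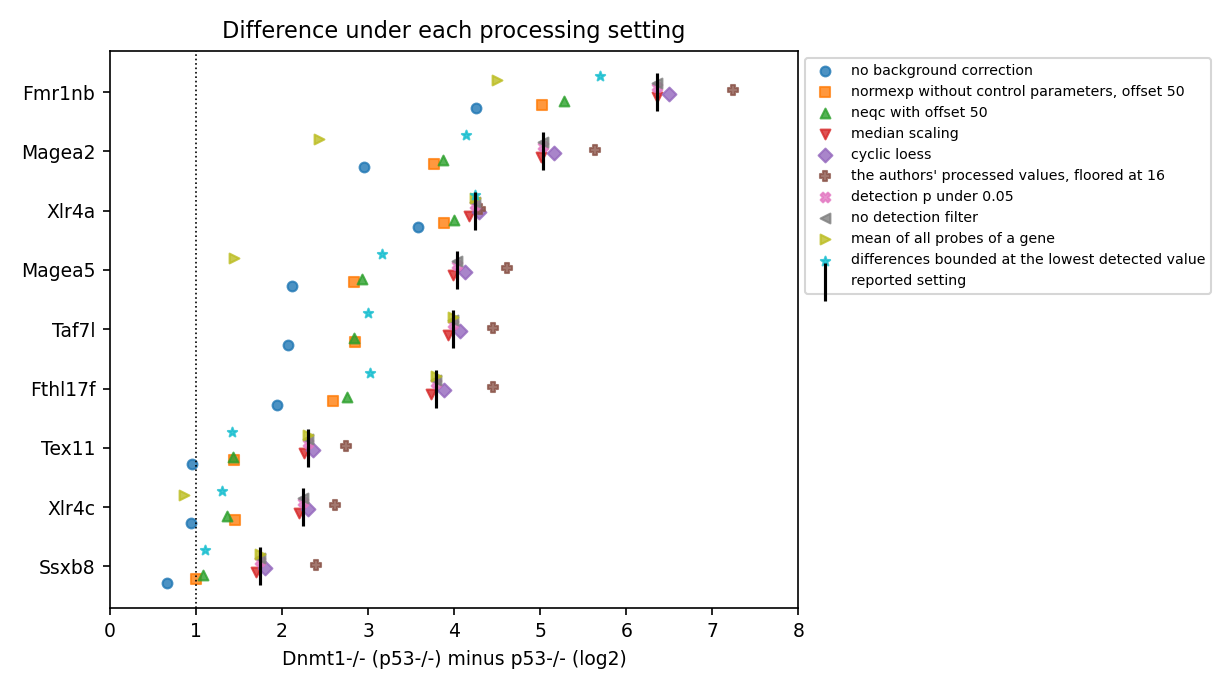
Difference of each of the 9 genes, Dnmt1-/- (p53-/-) minus p53-/- (log2, x axis), as reported (black bar) and under 10 alternative settings (symbols), with a dotted line at 2-fold. All values lie above 0, and Tex11, Xlr4c and Ssxb8 fall below the line under at least 1 setting each.

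Of the 9 genes 6 stayed past 2-fold under all 10 alternative settings, of which those that changed only the detection filter could not move a difference. Without background correction Tex11 differed by 0.95, Xlr4c by 0.94 and Ssxb8 by 0.66 log2. The values of Xlr4a moved least, between 3.58 and 4.30 log2, and those of Fmr1nb lay between 4.26 and 7.24 log2.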

How the data were processed

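Total RNA was extracted with TRIzol, amplified and labelled with biotin, per the labels' protocols. The deposited table held linear probe intensity values, not normalized per the file headers, and a detection p-value per probe, per the file headers. The authors' own processed intensity values formed a further table. These kept a linear scale and nearly the rank order of the unprocessed signals (Spearman rho 0.99997 and 0.99998 across probes for Dnmt1-/- (p53-/-) and p53-/-), with medians of 13.8 and 14.2, a shared mean and some values below 0. How they were background-corrected and scaled is not given in the sources used here, nor is the scanner software.

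Signals were processed in R 4.3.3 with limma 3.58.1 by neqc, that is, normexp background correction with control parameters estimated through the detection p-values, an offset of 16, quantile normalization and log2. This step was tested on simulated arrays in which only probes clearly above background in the control were changed. Most of the 9 genes were undetected in p53-/- cells, so that test does not cover their folds. Of 25697 probes, 23978 had 1 gene symbol, 0 several and 1719 none, and 23962 matched a RefSeq gene (GRCm38.p6) by Entrez identifier. The probe with the highest mean level stood for a gene. A gene was called at a detection p-value under 0.01 on at least 1 array and a difference of 1 log2 or more. No p-value was computed. Promoter windows were aligned with Biopython 1.88. Every gene of the 9 was named, and from each related list up to 4 genes past 2-fold, largest first, or else up to 2 detected genes. Other names, such as undetected paralogs, were added after their values were seen. The members and all lists were chosen with earlier results of these data known.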

Additional observations from a re-analysis of the deposited data

How the results depend on the processing

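Over 10 alternative settings and 9 genes, 85 of 90 differences stayed past 2-fold, 5 fell below it and 0 changed sign. The 5 were Tex11 (0.95 log2), Xlr4c (0.94) and Ssxb8 (0.66) without background correction, Ssxb8 with normexp and an offset of 50 (0.997) and Xlr4c with the mean of all probes (0.87), where 2 undetected probes enter the mean. The cause of the others was not tested. Settings that changed only the detection filter, to p under 0.05 or to no filter, leave every difference as reported. Those settings therefore could not make a difference fall below 2-fold, and they are included in each count out of 10 alternatives. The count of all genes higher by 2-fold was 429, and it ran from 199 without background correction to 463 with the authors' processed values. It was 272 with normexp and an offset of 50 and 297 with neqc and an offset of 50. The count of genes lower, added after the data were seen, was 355. It was 142 without background correction and 206 with normexp and an offset of 50. With neqc and an offset of 50 it was 232, and with the authors' processed values 568. Under median scaling 395 genes were higher and 427 lower. No paired analysis was possible because each genotype had 1 array. The median difference of the 9 genes was 3.98 log2 and ran from 2.07 log2 without background correction to 4.45 log2 with the authors' processed values.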
